A study of Mus musculus with 18 samples.

Results

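The question here was whether mouse kidney cortex changes in the same way in 2 genotypes during the 3 weeks that follow a toxic injury. The comparison used 12 of the 18 RNA-seq libraries of the series, 3 in each of 4 groups, chosen by their labels alone. Controls were Klf6fl/fl mice, which carry floxed Klf6 alleles, and the other genotype was labelled Klf6PTKO, a loss of Klf6 in the proximal tubule (called fl/fl and PTKO below). All mice were C57Bl/6. They received AAI, the abbreviation used in kidney research for aristolochic acid I, for 3 weeks, and were studied then or after another 3 weeks of remodeling, labelled 6 weeks. The 6 DMSO libraries, 3 per genotype, did not enter the test and are quoted as levels only. The driver of the deletion, the dose, the age and the sex are not given in the sources used here, and nothing says whether libraries are from separate mice, so any p-value reflects the spread among libraries only. For each of 14469 genes, of 24062 in the table, the remodeling change (6 weeks minus 3 weeks) in fl/fl was subtracted from that in PTKO on the log2(CPM + 1) scale, where CPM is the deposited read count scaled to library size. A negative difference means that the gene ended lower in PTKO, relative to its level at 3 weeks, than it did in fl/fl.

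Aristolochic acid I is a plant toxin that proximal tubule cells take up and that forms DNA adducts, and the straight S3 segment of the tubule is its main site of damage. Such damage is known to switch on p53 targets and injury markers, to silence the transport and metabolic genes of the proximal tubule, and to be followed by proliferation, infiltration of immune cells and matrix deposition. Repair reverses these programs to differing degrees, and tubule cells that fail to redifferentiate keep a proinflammatory and profibrotic state. KLF6 is a zinc-finger transcription factor of the Kruppel-like family that injury induces.

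The 12 libraries held 11722625 to 27213219 reads. The proximal tubule phosphate transporter Slc34a1 was at 1312 to 4044 CPM in all 12. Klf6 itself did not separate the genotypes in whole cortex: it was at 308, 273 and 256 CPM in fl/fl at 3 weeks, 284, 201 and 270 CPM in fl/fl at 6 weeks, 310, 280 and 229 CPM in PTKO at 3 weeks, and 228, 254 and 370 CPM in PTKO at 6 weeks. The genotype is therefore given as labelled. Within groups, libraries correlated at r = 0.970 to 0.992 over genes. At 3 weeks, PTKO replicate 1 (r = 0.984 and 0.986 with its group, whose other libraries correlated at 0.990) had the highest interferon-stimulated, T cell and macrophage gene levels of its group. At 6 weeks, replicate 2 of fl/fl was the shallowest and had the highest S3 segment levels of its group. At 6 weeks, replicate 3 of PTKO had the lowest S3, cell cycle, collagen and macrophage levels of its group and the highest levels of thick ascending limb genes. The 6-week PTKO replicate 2 alone among the 12 held the fat cell genes Adipoq (35.2 CPM) and Plin1 (18.3 CPM), which reached at most 0.224 and 0.0773 CPM in the other 11.

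Genes whose remodeling differed between genotypes were few at this replication. limma's moderated test called 3 of 14469 genes at a Benjamini-Hochberg adjusted p under 0.05, which is 0.0207% of those tested, and all 3 had a lower change in PTKO. They were Ugt2b38, a UDP-glucuronosyltransferase that conjugates lipophilic compounds, Arhgef19, a guanine nucleotide exchange factor, and Rps2, a protein of the small ribosomal subunit. At an unadjusted p under 0.05 there were 1063 genes (7.35%), 240 (1.66%) with a higher and 823 (5.69%) with a lower change in PTKO. edgeR's quasi-likelihood test on the recovered reads called 4 genes, and DESeq2 called 36, of which 12 were higher. The median difference over all genes was -0.08 and moved to -0.006 with median-of-ratios scaling, so list medians below are to be read against it. Of the 14469 differences, 9015 were below 0 and 5454 above it. Counts of list members below or above 0 are to be read against these.

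Between genotypes, 942 genes (6.51%) differed at 3 weeks and 1172 (8.1%) at 6 weeks. These comparisons use the same libraries as the difference, so their values stand beside it and do not support it.

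The number of calls has to be read against the precision. The 95% confidence interval of the difference had a median half-width of 0.46 on the log2 scale. It lay wholly between -1 and 1 for 11595 genes (80.1%), so a difference beyond 1 on this scale was outside the interval of those genes. For the remaining genes the interval did not exclude such a difference. The added 1 CPM shrinks the differences of low genes, so for them 1 on this scale stands for more than 2-fold in CPM.

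Each genotype had a remodeling change of its own. In fl/fl, 878 genes (6.07%) changed, 489 of them rising and 389 falling, and in PTKO also 878 (6.07%), with 177 rising and 701 falling. That split in PTKO depended on the scaling and was 256 rising and 458 falling with median-of-ratios factors, against 432 and 434 in fl/fl. The genes called in both arms numbered 268, which is 30.5% of each list, and 266 of them moved the same way, 77 up and 189 down. Over the 14469 genes, which are not independent replicates, the changes in the 2 arms, which share no library, correlated at r = 0.692 (Spearman 0.637). Leaving out 1 library moved the fl/fl count between 134 (without 3-week fl/fl replicate 3) and 1541 (without 6-week PTKO replicate 3), and the PTKO count between 99 (without 3-week PTKO replicate 3) and 1266 (without 6-week fl/fl replicate 2).

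**Figure D1:**
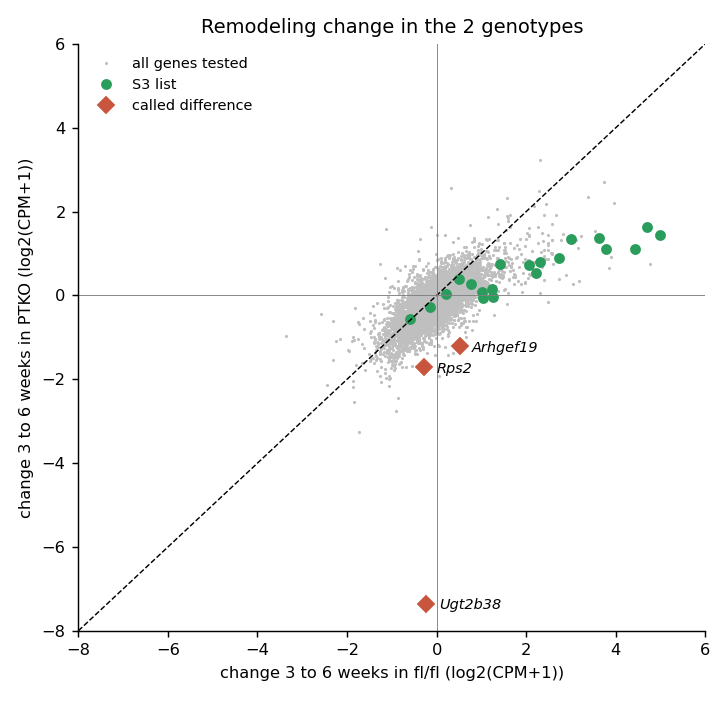
Remodeling change (6 weeks minus 3 weeks, log2(CPM + 1)) of every tested gene in fl/fl on the x axis and in PTKO on the y axis; the dashed line marks equal change. The points follow the diagonal loosely (r = 0.692), and most of the 20 S3 segment genes (green) lie below it. The 3 called genes (red) also lie below the dashed line, Ugt2b38 with a change of -7.36 in PTKO.

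Ugt2b38 (chromosome 5, 87409942 to 87424203 in GRCm38, minus strand) showed the largest difference of the genes called. It stood at 384, 159 and 161 CPM in fl/fl at 3 weeks and at 124, 227 and 217 CPM at 6 weeks. In PTKO it stood at 116, 235 and 212 CPM at 3 weeks and at 0.21, 0.05 and 0.05 CPM at 6 weeks. The genotypes overlapped at 3 weeks and were far apart at 6 weeks, where the 3 PTKO libraries held 4, 1 and 1 reads. The fitted difference was -7.13 (95% interval -8.23 to -6.03, adjusted p = 1.52e-04), a value that the pseudocount limits. By pooled reads, the 6-week level was 1714-fold higher in fl/fl than in PTKO (exact 95% interval 787 to 4672, counting error only). A gap of the same kind was present without AAI: the DMSO libraries stood at 992, 944 and 877 CPM in fl/fl and at 452, 431 and 0.27 CPM in PTKO. Replicate 3 of the PTKO DMSO group, with 5 reads, thus matched the 6-week PTKO libraries. UGT2B genes share long stretches of sequence, so the reads may be divided uncertainly among copies. Ugt2b37 was at 221, 223 and 30.1 CPM in the same 6-week PTKO libraries. The call held in 24 of 25 alternative settings and was lost when the DMSO libraries entered the fit (adjusted p = 0.331).

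Arhgef19 (chromosome 4, 141239499 to 141257564, plus strand) was at 8.06, 9.38 and 9.60 CPM in fl/fl at 3 weeks and at 15.2, 11.2 and 13.8 CPM at 6 weeks. PTKO libraries were at 9.70, 9.04 and 8.59 CPM at 3 weeks and at 3.84, 3.79 and 2.56 CPM at 6 weeks. It thus fell in PTKO (-1.21, adjusted p = 0.00502), while the fl/fl change of 0.51 did not pass (adjusted p = 0.0687). The difference was -1.73 (-2.21 to -1.25, adjusted p = 0.0376). The genotypes overlapped at 3 weeks and did not overlap at 6 weeks. Leaving out 1 library kept the call only without 6-week fl/fl replicate 2 or 6-week PTKO replicate 3, with adjusted p from 0.0301 to 0.185 over the 12 leave-outs.

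Rps2 (chromosome 17, 24718116 to 24721929, plus strand) was lower in PTKO at both times. Its levels were 132, 142 and 189 CPM in fl/fl at 3 weeks and 129, 110 and 139 CPM at 6 weeks. In PTKO they were 75.6, 83.6 and 71.7 CPM at 3 weeks and 22.9, 21.1 and 24.2 CPM at 6 weeks, with no overlap between genotypes at either time. The gap between genotypes widened from -0.98 to -2.41, a difference of -1.43 (-1.85 to -1.01, adjusted p = 0.0412). Rps2 has many processed pseudogene copies, so its reads are uncertain. The call remained on leaving out 3-week fl/fl replicate 3 or 6-week fl/fl replicate 2 and was lost on leaving out any of the other 10 libraries (adjusted p 0.00657 to 0.187 over the 12). In the PTKO DMSO group, replicate 3 again stood apart for both genes: Arhgef19 was at 12.5, 13.8 and 5.01 CPM and Rps2 at 62.0, 63.0 and 26.1 CPM. Vwa1, a matrix protein among the next genes in rank, had the same form, at 40.1, 39.7 and 12.8 CPM in PTKO DMSO and 8.83, 8.21 and 6.70 CPM in PTKO at 6 weeks, against 17.9, 22.5 and 17.3 CPM in PTKO at 3 weeks. Low levels of these genes were thus not limited to the remodeled PTKO libraries. For them, an effect of remodeling and any other difference between the mice of these groups cannot be told apart.

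**Figure D2:**
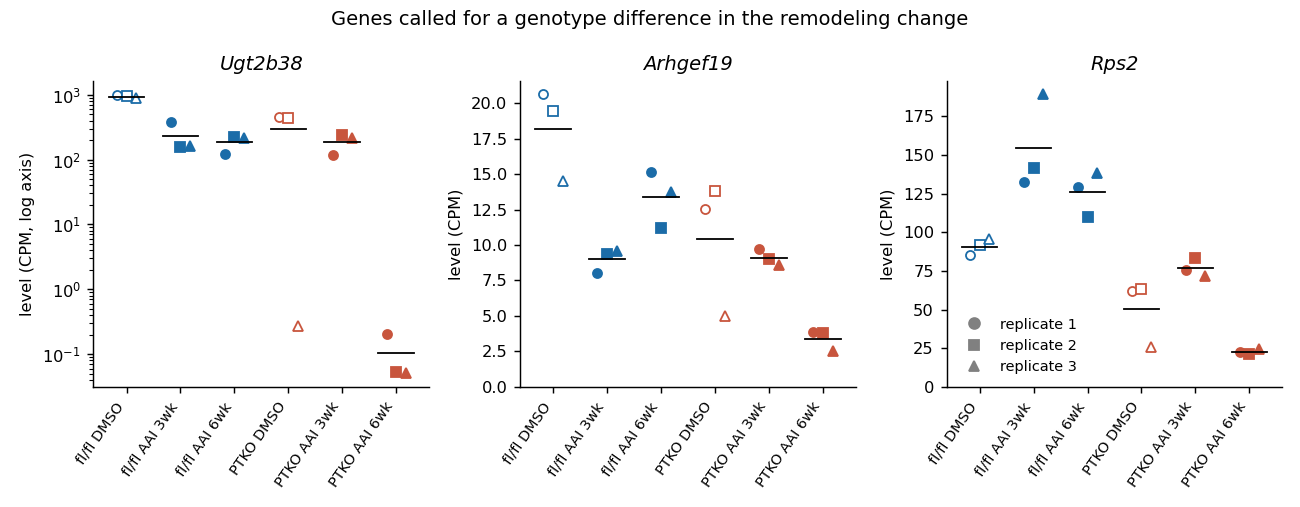
Level (CPM) of the 3 called genes in each library, fl/fl in blue and PTKO in red, open symbols for DMSO, one symbol shape per replicate number, bars for group means; Ugt2b38 is on a log axis. The 6-week PTKO libraries are the lowest of the AAI libraries for each gene, and PTKO DMSO replicate 3 lies near them, at 0.27 CPM for Ugt2b38.

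The next 12 genes in the direction of a lower change in PTKO, ranked by unadjusted p, did not pass the test (adjusted p 0.111 to 0.354) and are given as values. Several of them stood higher in PTKO at 3 weeks and gained in fl/fl afterwards. Serpina1b, an alpha-1-antitrypsin gene, was at 1.83, 2.16 and 1.74 CPM in fl/fl at 3 weeks and 13.1, 20.1 and 13.7 CPM at 6 weeks, against 12.9, 15.4 and 10.7 CPM and then 27.8, 24.0 and 21.9 CPM in PTKO. It rose in both arms, by 2.49 in fl/fl and 0.88 in PTKO, a difference of -1.61 (-2.17 to -1.06). Slc2a5, the fructose transporter GLUT5 of the S3 segment, was at 27.9, 24.0 and 24.8 CPM in fl/fl at 3 weeks and at 54.5, 86.1 and 66.9 CPM at 6 weeks. Its PTKO levels were 96.8, 136 and 123 CPM and then 152, 131 and 104 CPM. It rose in fl/fl (1.38, adjusted p = 0.00544), was at 0.12 in PTKO, and differed by -1.26 (-1.82 to -0.70). Slc5a10, a mannose and fructose cotransporter of the kidney, had the same form, at 16.6, 39.5 and 29.9 CPM and then 116, 187 and 122 CPM in fl/fl, against 89.7, 178 and 181 CPM and then 161, 173 and 117 CPM in PTKO. At 6 weeks the genotypes overlapped for Slc5a10, and its difference was -2.25 (-3.28 to -1.23).

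Others of these 12 fell in PTKO. Camk2b, a subunit of calcium/calmodulin-dependent kinase II, was at 15.3, 10.7 and 10.8 CPM in fl/fl at 6 weeks and at 0.675, 0.842 and 0.818 CPM in PTKO, which had been at 8.23, 3.75 and 6.04 CPM at 3 weeks. Its difference was -1.99 (-2.71 to -1.27). Dcdc2a, a doublecortin-domain gene counted among markers of failed-repair tubule cells, was at 115, 131 and 93.5 CPM and then 174, 178 and 160 CPM in fl/fl. In PTKO it went from 127, 160 and 114 CPM to 89.3, 93.0 and 91.2 CPM. It rose in fl/fl (0.60, adjusted p = 0.028) and fell in PTKO (-0.53, adjusted p = 0.0415), while the difference of -1.14 (-1.55 to -0.72) had an adjusted p of 0.159. The remaining genes were Snap91 (-1.43), a clathrin assembly protein, Greb1l (-1.16), Adamts16 (-1.52), a secreted metalloproteinase, Gria3 (-0.85), a glutamate receptor subunit, Klhl42 (-0.76), a ubiquitin ligase adaptor, Vwa1 (-1.57) and Zfp641 (-0.80), a zinc-finger protein. Of the 15 genes on this side, the 3 called ones included, 11 fell in PTKO and 1 rose (4.84% and 1.22% of all genes). In fl/fl 4 of them rose (3.38% of all genes). The genotypes did not overlap for 14 of them at 6 weeks and for 7 at 3 weeks. All of these counts are a description only, since the difference ranked the genes. Over all tested genes, 27.9% had genotype groups that did not overlap at 6 weeks and 33.9% at 3 weeks.

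None of the 15 genes ranked first in the opposite direction passed the test (adjusted p 0.101 to 0.549). Fam213b, a prostamide and prostaglandin F synthase, came nearest. It was at 11.9, 13.7 and 13.1 CPM and then 7.43, 9.21 and 9.28 CPM in fl/fl, and at 19.8, 24.8 and 22.0 CPM and then 42.0, 36.7 and 32.5 CPM in PTKO. It fell in fl/fl (-0.53, adjusted p = 0.04) and rose in PTKO (0.71, adjusted p = 0.0166), with a difference of 1.24 (0.83 to 1.65, adjusted p = 0.101). The genotypes did not overlap at either time, nor in DMSO, at 7.27, 5.69 and 6.92 CPM against 37.7, 36.7 and 68.6 CPM. PTKO DMSO replicate 3 thus stood apart for this gene too, here as the highest of its group. For Fam213b as well, an effect of remodeling and any other difference between the mice of these groups cannot be told apart. Herpud1, part of the machinery that clears misfolded proteins from the endoplasmic reticulum, was at 347, 212 and 250 CPM and then 248, 292 and 270 CPM in fl/fl. It rose in PTKO, from 285, 297 and 256 CPM to 591, 524 and 433 CPM (0.88, adjusted p = 0.017), and differed by 0.85 (0.33 to 1.37).

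Metallothionein Mt2, which binds zinc, fell in fl/fl from 270, 316 and 359 CPM to 157, 118 and 179 CPM. In PTKO it was already at 114, 124 and 199 CPM at 3 weeks and stood at 133, 140 and 174 CPM at 6 weeks, so that the difference of 1.13 (0.48 to 1.79) came with levels that met at 6 weeks. Tsc22d3 and Zbtb16, which glucocorticoids are known to induce, had differences of 1.47 (0.76 to 2.17) and 2.72 (1.0 to 4.45). Tsc22d3 rose in PTKO, from 34.8, 29.8 and 49.3 CPM to 59.9, 93.5 and 84.7 CPM. For Zbtb16 the value of 56.4 CPM in 3-week fl/fl replicate 1, against 12.5 and 10.3 CPM in the others, enters its difference. The other genes were Fosb (1.58), an AP-1 subunit, Wee1 (0.57), a kinase that restrains mitotic entry, Alas1 (0.67), the first enzyme of haem synthesis, Ccrn4l (0.65), a circadian deadenylase, Chp1 (0.43), Rplp2 (0.53) and Rps21 (0.59), of the ribosome, Ciapin1 (0.43), of iron-sulphur cluster assembly, Slc7a7 (0.79), a cationic amino acid transporter, and Romo1 (0.48), of mitochondria. Of these 15, 5 fell in fl/fl (2.69% of all genes fell) and 7 rose in PTKO (1.22% of all genes rose). The genotypes did not overlap for 11 of them at 3 weeks and for 10 at 6 weeks (33.9% and 27.9% of all genes). These counts are again a description only, since the difference ranked the genes.

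**Figure D3:**
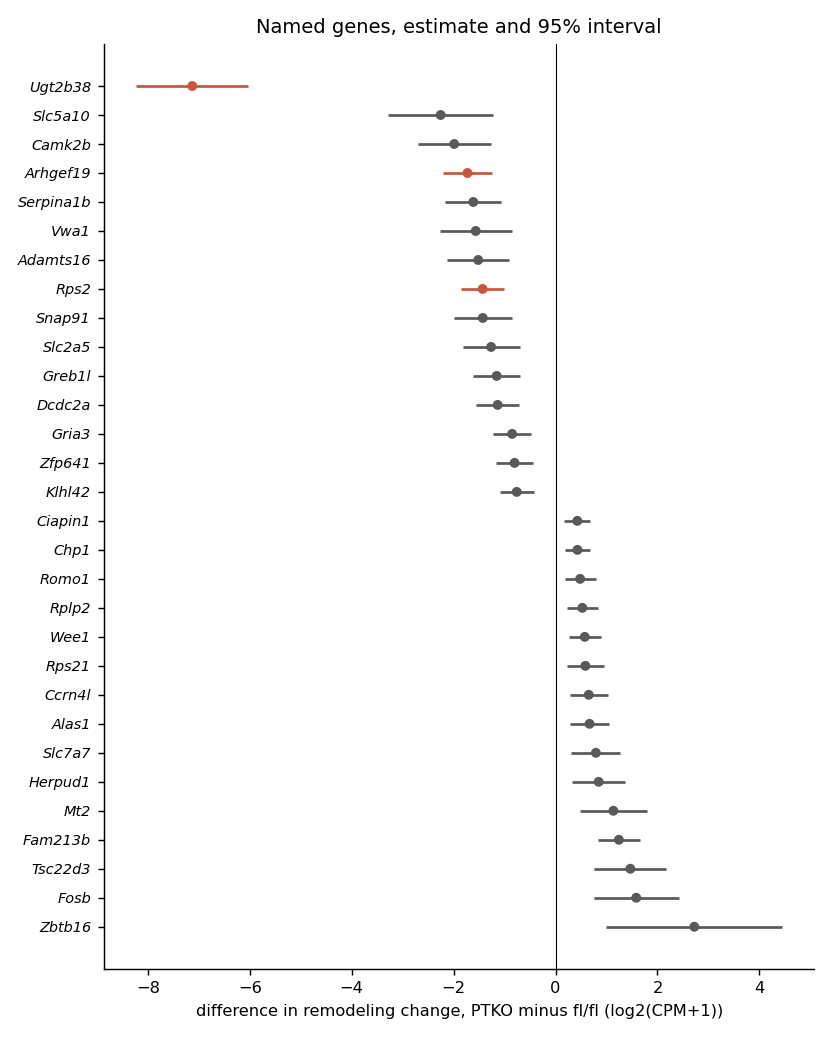
Difference in remodeling change, PTKO minus fl/fl (log2(CPM + 1)), with its 95% confidence interval, for the 15 genes ranked first in each direction; red marks the 3 called genes. The interval of every gene shown leaves out 0 because the genes were ranked by unadjusted p, and only Ugt2b38, Arhgef19 and Rps2 passed the adjusted test.

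Among the gene lists, that of the S3 segment had the lowest median difference, -1.31 over 20 tested members against -0.08 over all genes. The lists and their members were chosen with earlier results of these data known. Ranks of lists and counts of their members, here and below, are therefore a description only. No member passed the test of the difference. At an unadjusted p under 0.05 there were 9, each with a lower change in PTKO (5.69% of all genes). In fl/fl, 12 of the 20 rose (3.38% of all genes rose), with a list median of 1.74, and in PTKO 0 rose (1.22% of all genes rose), with a median of 0.63. The 3-week libraries that both this comparison and the difference use held the genotypes apart: 8 of 20 were higher in PTKO at 3 weeks (median 1.42, with 2.7% of all genes higher), and 0 at 6 weeks (median 0.29, with 1.55% higher). The fl/fl arm thus started from a lower level, and the genotypes stood near each other at its end.

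The mean log2(CPM + 1) of the 20 S3 genes in each library shows this. It was 5.50, 6.27 and 5.59 in fl/fl at 3 weeks and 7.50, 8.64 and 7.32 at 6 weeks. In PTKO it was 7.08, 7.97 and 7.15 at 3 weeks and 8.59, 8.40 and 6.97 at 6 weeks. DMSO libraries were at 8.74 to 9.47. At 3 weeks every PTKO library lay above every fl/fl library, whereas at 6 weeks the groups overlapped, with PTKO replicate 3 the lowest of all 6. In whole cortex, fewer S3 cells and less RNA per S3 cell cannot be told apart.

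Single S3 genes followed this form. Kap, an androgen-regulated protein of proximal tubule cells, was at 68.5, 436 and 180 CPM and then 4353, 13121 and 3057 CPM in fl/fl. PTKO libraries were at 979, 2852 and 787 CPM and then 9359, 6917 and 683 CPM, where replicate 3 did not exceed its 3-week group. Kap rose in fl/fl (4.99, adjusted p = 0.017), and the difference was -3.54 (-6.55 to -0.53, adjusted p = 0.658). Slc22a19, an organic anion transporter, was at 1.72, 11.9 and 6.02 CPM and then 59.6, 196 and 52.7 CPM in fl/fl, against 34.6, 95.9 and 35.7 CPM and then 199, 144 and 43.1 CPM in PTKO. Its difference was -2.67 (-4.86 to -0.49). Slc5a1, the glucose cotransporter SGLT1, varied less: it was at 36.7, 61.3 and 39.8 CPM and then 99.3, 104 and 72.1 CPM in fl/fl, and at 89.6, 122 and 92.2 CPM and then 116, 106 and 96.3 CPM in PTKO. It rose in fl/fl (1.0, adjusted p = 0.0178), with a difference of -0.93 (-1.54 to -0.31, adjusted p = 0.566). Atp11a, a phospholipid flippase, differed by -1.30 (-2.33 to -0.26). Slco1a1, an organic anion transporter, was at 631 to 864 CPM in the fl/fl DMSO libraries and at 0.567 to 1.08 CPM in fl/fl at 3 weeks. It was at 19.1, 79.4 and 6.19 CPM in fl/fl at 6 weeks and at 26.2, 14.1 and 0.409 CPM in PTKO, which had been at 1.15, 6.54 and 1.05 CPM. Its difference of -2.24 had an interval from -5.45 to 0.97, too wide to place it.

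These S3 counts rest on few libraries. The fl/fl count of 12 fell to 3 without 3-week fl/fl replicate 1, to 0 without 3-week fl/fl replicate 3 and to 1 without 6-week fl/fl replicate 2. The 3-week count of 8 fell to 0 without 3-week fl/fl replicate 3, PTKO replicate 2 or PTKO replicate 3, to 5 without 3-week fl/fl replicate 2 or 6-week PTKO replicate 1, and reached 14 without 6-week PTKO replicate 3. Leaving out 6-week fl/fl replicate 2 and 6-week PTKO replicate 3 together, a setting chosen after seeing the data, gave 13 that rose in fl/fl and 7 in PTKO, and a median difference of -0.52. With array quality weights the median difference was -0.35. Genes listed for the medulla and urothelium also stood higher at 6 weeks, with medians of 1.5 in fl/fl and 1.25 in PTKO over 11 members. Of these, 1 rose in fl/fl and 2 in PTKO (3.38% and 1.22% of all genes rose). The list includes Aqp1 and Fxyd4, so it is not limited to tissue outside the cortex. What part medulla or urothelium had in the S3 and thick ascending limb values was not tested.

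**Figure D4:**
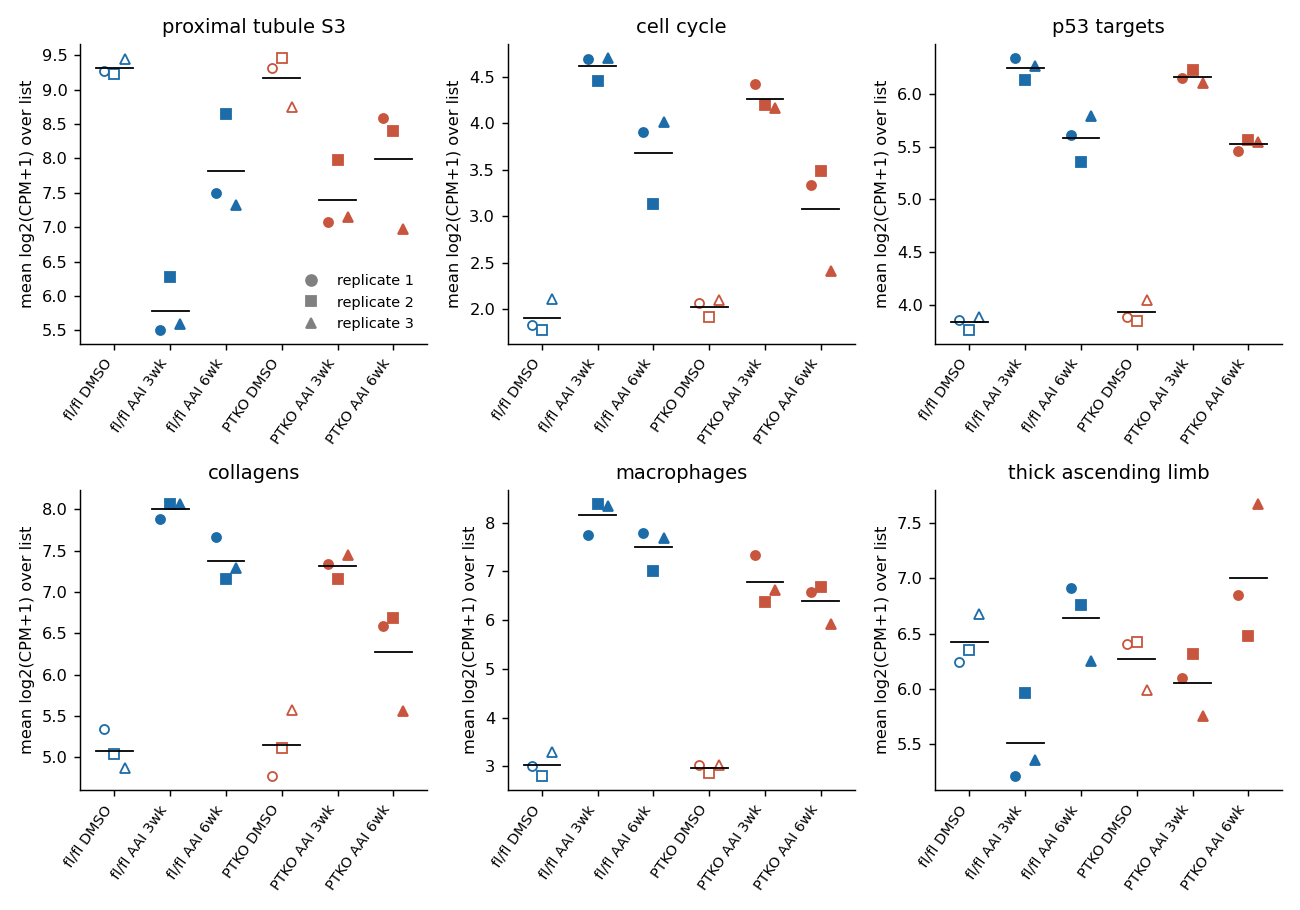
Mean log2(CPM + 1) over the measured members of 6 gene lists in each library, fl/fl in blue and PTKO in red, open symbols for DMSO, one symbol shape per replicate number, bars for group means. The thick ascending limb panel averages 14 genes, of which 13 were tested. In the S3 panel the 3-week fl/fl libraries lie lowest (5.50 to 6.27), and the spread at 6 weeks is wide in both genotypes; 6-week PTKO replicate 3 is the lowest of its group in the S3, cell cycle, collagen and macrophage panels.

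Genes of the convoluted proximal tubule (S1 and S2) had a median of -0.20 over 25 members, with 0 called. Of these, 1 rose in fl/fl and 0 in PTKO (3.38% and 1.22% of all genes rose). Slc34a1, the main phosphate transporter, was at 2277, 1435 and 1376 CPM and then 1312, 1980 and 2068 CPM in fl/fl, and at 2469, 3188 and 3329 CPM and then 4044, 3775 and 2738 CPM in PTKO. Its remodeling changes were 0.09 and 0.22, and the difference was 0.14 (-0.66 to 0.94). Slc5a2, the glucose cotransporter SGLT2, differed by 0.27 (-0.29 to 0.83).

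Among metabolic lists, the only called difference was that of Ugt2b38. Their counts of rising and falling genes are to be read against all genes. Of those, 3.38% rose and 2.69% fell in fl/fl, and 1.22% rose and 4.84% fell in PTKO. The median difference was -0.33 for 12 genes of gluconeogenesis and fructose use (-0.60 to -0.15 over the 12 leave-outs), with 11 below 0, of which Slc2a5 alone rose in fl/fl. It was -0.20 for 21 cytochromes P450 (4 rose and 1 fell in fl/fl, 2 rose and 1 fell in PTKO). It was -0.08 for 29 genes of fatty acid oxidation, with 3 that rose in each genotype, -0.11 for 19 of the tricarboxylic acid cycle and 0.06 for 27 of oxidative phosphorylation. Branched-chain amino acid catabolism, a pathway tied to KLF6 by the study's own work and so not independent here, had a median of -0.11 over 30 genes, with 2 that rose in fl/fl and 0 in PTKO. Bckdhb, a subunit of its rate-limiting dehydrogenase, differed by -0.17 (-0.94 to 0.61). The 22 tested phase II conjugation genes, Ugt2b38 included, had a median of -0.04, against -0.08 over all genes. Of these 22, 6 rose in fl/fl, and 4 rose and 1 fell in PTKO.

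No gene of the distal segments was called for a difference. Of 13 thick ascending limb genes, 3 rose in each genotype (medians 1.0 in fl/fl and 0.89 in PTKO), against 3.38% of all genes in fl/fl and 1.22% in PTKO. The median difference of -0.10 was -0.41 without 6-week PTKO replicate 3 and 0.12 without 6-week PTKO replicate 2. The fl/fl count was 0 without 3-week fl/fl replicate 3 or 6-week fl/fl replicate 2, 1 without 3-week fl/fl replicate 1, 6 without 6-week fl/fl replicate 3 or PTKO replicate 2, and 10 without 6-week PTKO replicate 3. The PTKO count was 0 without 3-week PTKO replicate 1 or 3 or 6-week PTKO replicate 1 or 3, 1 without 3-week fl/fl replicate 3 and 5 without 6-week PTKO replicate 2. Egf, a growth factor made by this segment, was at 41.9, 183 and 56.4 CPM and then 441, 918 and 235 CPM in fl/fl, and rose there (2.58, adjusted p = 0.0226). Its PTKO levels were 246, 387 and 235 CPM and then 1035, 708 and 1048 CPM (1.70, adjusted p = 0.0811), with a difference of -0.88 (-2.53 to 0.77). Of 15 intercalated cell genes, 14 had a difference below 0 (median -0.23), with 2 that rose in fl/fl and 0 in PTKO. An unadjusted p under 0.05 was found for 2, both with a lower change in PTKO (5.69% of all genes). Slc4a1, the chloride and bicarbonate exchanger of acid-secreting cells, rose in fl/fl (1.61, adjusted p = 0.00939) and differed by -1.21 (-2.01 to -0.41, adjusted p = 0.566), and Kit differed by -0.68. Medians were -0.03 for 14 principal cell genes and -0.00 for 14 genes of the distal convoluted tubule.

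No injury marker was called for a difference between genotypes. The median difference over 22 tubular injury genes was 0.00, with 2 that fell in fl/fl and 3 in PTKO (2.69% and 4.84% of all genes fell). It ranged from -0.19 to 0.17 over the leave-outs. In fl/fl the count was 7 without 6-week PTKO replicate 3 and 1 without 3-week fl/fl replicate 1, 2 or 3, 3-week PTKO replicate 2 or 3, 6-week fl/fl replicate 2 or 6-week PTKO replicate 1. In PTKO the count was 0 without 3-week PTKO replicate 3, 1 without 3-week or 6-week PTKO replicate 1, 6 without 6-week fl/fl replicate 2 and 5 without 6-week PTKO replicate 2. S100a6, a calcium-binding protein, fell in both, from 545, 342 and 480 CPM to 142, 71.7 and 144 CPM in fl/fl and from 285, 323 and 258 CPM to 94.4, 113 and 141 CPM in PTKO. Havcr1, the injury marker KIM-1, was at 545, 443 and 455 CPM and then 210, 119 and 257 CPM in fl/fl, and at 582, 841 and 547 CPM and then 269, 351 and 116 CPM in PTKO. It fell in PTKO (-1.53, adjusted p = 0.0344), and the fl/fl change of -1.36 did not pass (adjusted p = 0.0517). The difference was -0.17 (-1.31 to 0.97), and that of Lcn2, the secreted injury marker NGAL, was 0.47 (-0.35 to 1.30). Of 13 failed-repair genes, 12 were below 0 and C3 above it, with a median of -0.29. Beside Dcdc2a these included Sema5a (-0.69) and Pdgfd (-0.62), and none but Dcdc2a had an adjusted p of the difference under 0.2.

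Targets of p53, which DNA damage induces, fell in equal number: 13 of 25 in fl/fl (2.69% of all genes fell) and 13 of 25 in PTKO (4.84% of all genes fell). Their medians were -0.64 and -0.58, and the median difference was -0.05. Bax, which promotes apoptosis, fell from 92.8, 100 and 121 CPM to 58.6, 51.6 and 67.1 CPM in fl/fl and from 87.2, 78.3 and 69.1 CPM to 54.9, 55.9 and 53.7 CPM in PTKO. Leaving out 1 library took the fl/fl count to between 5 (without 3-week fl/fl replicate 3) and 16, with 6 without 3-week fl/fl replicate 1 and 8 without 6-week fl/fl replicate 2. It took the PTKO count to between 2 (without 3-week PTKO replicate 3) and 14, with 6 without either other 3-week PTKO replicate and 4 without 6-week PTKO replicate 1.

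Cell cycle genes were lower at 6 weeks in both genotypes. Of 30, 8 fell in fl/fl and 21 in PTKO (2.69% and 4.84% of all genes fell), with medians of -1.02 and -1.35. The median difference of -0.22 was -0.03 with quantile normalization, -0.01 without 6-week fl/fl replicate 3, 0.09 without 6-week PTKO replicate 3 and -0.55 without 6-week fl/fl replicate 2. No member passed the test of the difference, and 0 had an unadjusted p under 0.05 (7.35% of all genes). Mki67, the proliferation marker Ki-67, was at 104, 83.7 and 89.1 CPM and then 54.3, 27.0 and 55.7 CPM in fl/fl. In PTKO it fell from 86.3, 64.8 and 82.6 CPM to 23.0, 29.5 and 6.24 CPM (-2.17, adjusted p = 0.0189), and the difference was -1.10 (-2.46 to 0.25). The PTKO count was 0 without 3-week PTKO replicate 1 or 3, 8 to 12 without any other 3-week library, 4 without 6-week PTKO replicate 1 and 6 without 6-week PTKO replicate 3. The fl/fl count was 0 without 3-week fl/fl replicate 1 or 3 or 6-week fl/fl replicate 2, 2 without 3-week fl/fl replicate 2, 3 without 3-week PTKO replicate 3 and 24 without 6-week PTKO replicate 3.

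Matrix genes fell in more members in PTKO than in fl/fl, but the difference itself was called for none. Of 19 collagen genes, 2 fell and 1 rose in fl/fl and 11 fell in PTKO (2.69% and 4.84% of all genes fell). All 19 differences were below 0, from -0.83 to -0.03, with a median of -0.42. With median-of-ratios scaling the PTKO count was 4 and the median -0.35. Col4a1, of basement membranes, was at 1415, 1515 and 1340 CPM and then 1146, 1106 and 1015 CPM in fl/fl. It fell in PTKO from 1120, 1236 and 1366 CPM to 735, 764 and 456 CPM, with a difference of -0.57 (-1.13 to -0.01, adjusted p = 0.673). Col4a3, a glomerular and tubular basement membrane chain, was the gene that rose in fl/fl (0.61, adjusted p = 0.0316), with a difference of -0.70 (-1.14 to -0.26). Without 6-week PTKO replicate 3 the median difference was -0.04 and 12 collagens fell in fl/fl, against 0 to 3 without any other library. The PTKO count was 1 to 7 without any 1 of the 6 libraries at 3 weeks and 6 without 6-week PTKO replicate 1.

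Of 28 genes for matrix proteins, crosslinkers and proteases, 5 fell in fl/fl and 11 in PTKO (2.69% and 4.84% of all genes fell), and none was called for a difference. The median difference of -0.31 was -0.13 without 6-week PTKO replicate 3. In fl/fl, 1 matrix gene fell without 3-week fl/fl replicate 3, 2 without 3-week fl/fl replicate 1 or 2 or 6-week fl/fl replicate 2 or 3, and 9 without 6-week PTKO replicate 3. In PTKO, 4 fell without 3-week PTKO replicate 1, 2 without 3-week PTKO replicate 3 and 5 without 6-week PTKO replicate 1. Ctgf, a matricellular growth factor, was among the 5 genes with a difference above 0 and fell in fl/fl from 542, 425 and 601 CPM to 295, 250 and 311 CPM. PTKO libraries were at 307, 299 and 323 CPM and then 226, 303 and 242 CPM, a difference of 0.58 (0.13 to 1.03). Of 17 fibroblast and myofibroblast genes, 2 fell in fl/fl and 6 in PTKO (2.69% and 4.84% of all genes fell). The median difference of -0.22 was 0.04 without 6-week PTKO replicate 3 and -0.09 without 3-week PTKO replicate 3. The fl/fl count was 0 without 3-week fl/fl replicate 3 or 6-week fl/fl replicate 2, 1 without 3-week fl/fl replicate 1 and 4 without 6-week PTKO replicate 3. The PTKO count was 0 without 3-week PTKO replicate 3, 2 without 3-week PTKO replicate 1 and 3 without 6-week PTKO replicate 1. Pdgfrb, a receptor of pericytes and fibroblasts, fell in PTKO from 141, 117 and 204 CPM to 75.8, 74.1 and 39.1 CPM, and in fl/fl was at 177, 234 and 208 CPM and then 151, 153 and 135 CPM. Its difference was -0.81 (-1.57 to -0.05).

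Over 24 macrophage genes the median difference was 0.33, 19 were above 0, and none passed. The median was 0.07 without 6-week fl/fl replicate 2, 0.65 without 3-week PTKO replicate 1, and -0.09 when replicate 2 of both 6-week groups was left out. They were lower in PTKO at 3 weeks in 17 of 24 (3.81% of all genes were lower) and at 6 weeks in 8 of 24 (6.55% of all genes were lower), from libraries that the difference also uses. At 6 weeks 2 macrophage genes were lower with median-of-ratios scaling. Cd163, a scavenger receptor of resident macrophages, fell in fl/fl from 14.6, 15.3 and 9.60 CPM to 6.43, 5.37 and 5.57 CPM. Its PTKO levels were 2.41, 2.06 and 4.58 CPM and then 3.43, 2.31 and 4.91 CPM, a difference of 1.23 (0.41 to 2.05, adjusted p = 0.566). The 3-week count was 0 or 1 without 3-week fl/fl replicate 2 or 3 or 3-week PTKO replicate 2 or 3. At 6 weeks it was 0 or 1 without fl/fl replicate 1 or 3 or PTKO replicate 1 or 3, 3 without 3-week PTKO replicate 3, 5 without 3-week fl/fl replicate 2, 13 without 3-week PTKO replicate 1 and 18 without 6-week fl/fl replicate 2.

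All 19 tested T and NK cell genes had a difference below 0 (median -0.57), and none changed in either arm. The median was -0.22 without 3-week PTKO replicate 1, -0.20 without 6-week PTKO replicate 3 and -0.90 without 6-week PTKO replicate 2. It was -1.07 when replicate 2 of both 6-week groups was left out. For 13 B and plasma cell genes, none of which changed, the median of -0.27 was 0.05 without 3-week fl/fl replicate 1 and 0.06 with array quality weights. Cd8a, of cytotoxic T cells, was at 9.37, 7.60 and 16.8 CPM and then 22.4, 11.9 and 17.2 CPM in fl/fl. PTKO libraries were at 30.1, 6.32 and 7.74 CPM and then 7.43, 7.57 and 6.19 CPM, where 3-week replicate 1 alone was high, and the difference was -1.24 (-2.67 to 0.19). Of 24 interferon-stimulated genes, 0 fell in fl/fl and 5 in PTKO (2.69% and 4.84% of all genes fell). The median difference of -0.43 was -0.09 without 3-week PTKO replicate 1 and -0.19 without 6-week PTKO replicate 3. The PTKO count was 0 without 3-week PTKO replicate 1 or 2 or 6-week PTKO replicate 1, 1 without 6-week PTKO replicate 3, and 3 without any 3-week fl/fl library, 3-week PTKO replicate 3, or 6-week fl/fl replicate 1 or 3. Ifit2, an interferon-induced inhibitor of translation, fell in PTKO from 129, 78.1 and 53.2 CPM to 30.3, 35.1 and 35.5 CPM, and in fl/fl was at 62.4, 42.3 and 46.3 CPM and then 45.0, 28.2 and 41.4 CPM. Its difference was -0.85 (-1.70 to -0.01, adjusted p = 0.676). Medians were -0.44 for 12 dendritic cell genes and 0.37 for 9 neutrophil genes, none called.

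Over 20 AP-1 and early response factors the median difference was 0.36, and 18 were above 0. An unadjusted p under 0.05 was found for 4, each with a higher change in PTKO (1.66% of all genes). The median was 0.21 without 3-week fl/fl replicate 3, -0.03 with array quality weights and 0.00 when 6-week fl/fl replicate 2 and 6-week PTKO replicate 3 were left out. Fosb, the first of the 4, fell in fl/fl from 4.85, 3.94 and 6.98 CPM to 2.04, 1.19 and 2.09 CPM. Its PTKO levels were 3.60, 3.20 and 2.55 CPM and then 5.76, 2.52 and 5.93 CPM. The others were Nr4a1, an orphan nuclear receptor (1.40, 0.43 to 2.37), Ier3 (0.95, 0.13 to 1.76) and Dusp1, a phosphatase of MAP kinases (1.04, 0.02 to 2.07).

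Apart from Rps2, 21 of 24 cytosolic ribosome genes had a difference above 0, with a median of 0.26, and 7 fell in fl/fl and 1 in PTKO (2.69% and 4.84% of all genes fell). With Rps2 counted, the median over 25 was 0.13 with array quality weights. The fl/fl count was 2 without 3-week fl/fl replicate 3 or 6-week fl/fl replicate 2 and 4 without 3-week fl/fl replicate 1. Rpl32 fell in fl/fl from 72.6, 74.2 and 87.9 CPM to 46.3, 45.2 and 49.6 CPM. PTKO libraries were at 60.7, 62.4 and 46.1 CPM and then 49.8, 46.0 and 46.2 CPM, so the genotypes met at 6 weeks, with a difference of 0.48 (0.11 to 0.85, adjusted p = 0.624). The median over 22 genes of the endoplasmic reticulum and integrated stress responses was 0.16, with 18 above 0 and Herpud1 the highest.

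**Figure D5:**
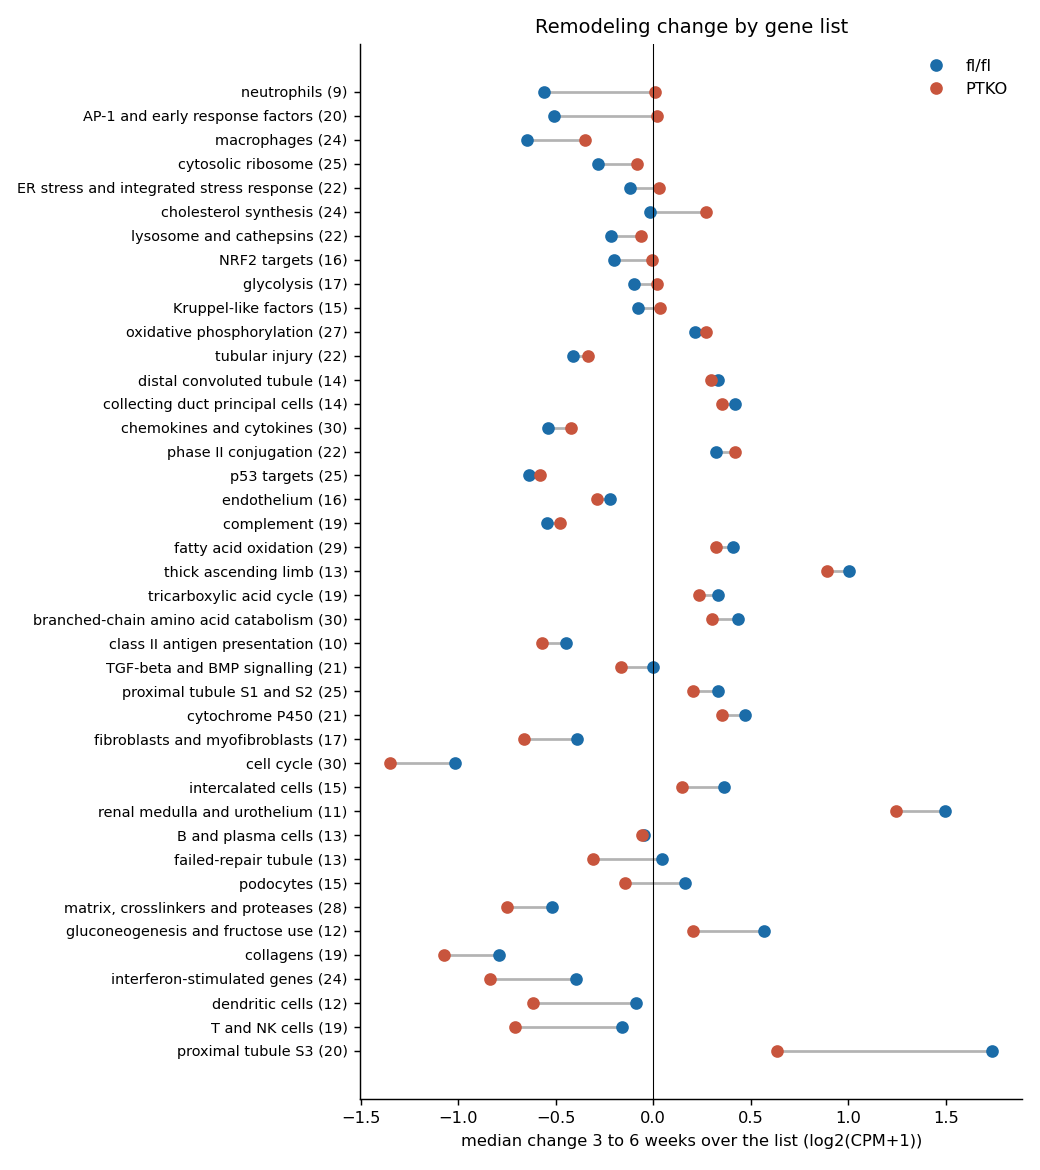
Median remodeling change (log2(CPM + 1)) over each gene list with at least 9 tested members, in fl/fl (blue) and PTKO (red), ordered by the median difference; the number of tested members is in brackets. The S3 list at the bottom has the widest gap (1.74 against 0.63), and most lists have medians on the same side of 0 in both genotypes.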

How the data were processed

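Kidney cortex RNA was sequenced with the TruSeq Stranded Total RNA kit, per the labels' protocols. The deposited table gives CPM per gene symbol for 18 libraries. bcl2fastq 2.19, kallisto and the mm10 build are named in the submitters' processing notes, with no order. Steps between these tools and the deposited CPM are not given in the sources used here. Each of 433116 values was a whole number of reads within 0.01 read (100% of values), so reads were recovered for the count tests, and library totals give the depth.

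The table held 24062 genes, of which 27 had symbols turned into dates. Testing was limited to genes reaching 1 CPM in 3 or more of the 12 libraries and was done on log2(CPM + 1), with limma 3.58.1 (R 4.3.3): 4 group means, 8 residual degrees of freedom, a variance trend and Benjamini-Hochberg adjustment over all 14469 genes. Tests are two-sided and intervals are 95%. Fold changes on this scale understate the change of low genes. The 2 remodeling arms and the genotype comparisons come from the same fit and share libraries with the difference. edgeR 4.0.16 and DESeq2 1.42.0 on the recovered reads, other scalings, filters, pseudocounts, weights and leave-outs were alternatives, and the code was tested on simulated data. Positions are from GENCODE M21 (GRCm38), which matched 22683 symbols.

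Named genes were the fixed examples Klf6, Havcr1, Lcn2, Slc34a1, Slc5a2, Slco1a1 and Bckdhb, 15 genes per direction whose highest group mean reached 5 CPM (called genes first, then the smallest unadjusted p), and up to 4 members with the smallest p per described list. Unnamed gene models, mitochondrially encoded genes and receptor segments were left out. Members and the 46 lists were chosen with earlier results of these data known. Fat cell genes and the UGT2B copies quoted beside Ugt2b38 were picked after their values were seen.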

Additional observations from a re-analysis of the deposited data

Results flagged for a closer look

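The change over the 3 weeks of remodeling differed between genotypes, by limma's test of the difference itself, for 3 genes. The difference, PTKO minus fl/fl on the log2(CPM + 1) scale, was -7.13 for Ugt2b38, -1.73 for Arhgef19 and -1.43 for Rps2. In each, all 3 PTKO libraries at 6 weeks lay below all 3 at 3 weeks, and 1 PTKO library without AAI, DMSO replicate 3, lay below the other 2 of its group.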

How the results depend on the processing

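All 30 genes ranked first kept the sign of their difference in 25 alternative settings. They were ranked by this difference in the same libraries, so the kept sign is a description only. Of the 27 not called, 19 were called in at least 1 setting, most of them in 1 only. All of these but Klhl42 were called by DESeq2. Ugt2b38 was called in 24 settings, Arhgef19 in 11 and Rps2 in 8. The count for the difference (3) was 5 with a pseudocount of 0.1, 1 without a filter, 20 with array quality weights and 36 with DESeq2. Fitting all 18 libraries gave 0 by limma's test, with 1383 at an unadjusted p under 0.05. It was 1 to 3 with 1 library left out, and 1 without replicate 2 of both 6-week groups.

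The other counts moved further. With 1 library left out they were 134 to 1541 for fl/fl remodeling (878), 99 to 1266 for PTKO remodeling (878), 15 to 1642 for genotype at 3 weeks (942) and 192 to 2736 for genotype at 6 weeks (1172). In the same order, they were 1941, 1641, 2082 and 2207 with all 18 libraries, 3050, 3044, 4398 and 5647 with array weights, and 1956, 1699, 2161 and 1804 with DESeq2. Without replicate 2 of both 6-week groups, fl/fl remodeling was 205 and the genotype counts 1430 and 2295. Without a filter the genotype counts were 426 and 781. The 6-week genotype count was 675 under median-of-ratios factors, 616 after quantile normalization and 671 in edgeR. Its split of 224 higher and 948 lower became 334 and 341 with median-of-ratios scaling, which moved the median of all genes from -0.11 to 0.01. Leaving out 6-week fl/fl replicate 2 and PTKO replicate 3, chosen after seeing the data, gave 1354 for PTKO remodeling and 2357 and 3398 for genotype. Where no value above shows the cause, the cause was not tested.

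With the replicate number as a block, 1 gene was called for the difference (Ugt2b38). The labels do not say that the numbers pair libraries. Deviations of 18 same-numbered pairs correlated at -0.37 to 0.49 (median -0.02), 5 of them over 0.1. Of 12 libraries, 4 correlated best with their own number, so a pairing was not shown by these values. Array weights ranged from 0.284 (6-week PTKO replicate 3) to 8.54 (3-week fl/fl replicate 2).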

Other observations

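Podocyte genes, of the glomerular filter, had a median difference of -0.29 over 15 tested members, with 14 below 0. Over all genes, 9015 of 14469 were below 0. In fl/fl 0 podocyte genes changed and in PTKO 2 fell (4.84% of all genes fell).

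Fat cell genes had the highest list median, 0.66 over 7 tested members, none called. It was 0.12 to 0.91 with 1 library left out. Adipoq, Plin1, Cidec and Retn did not pass the filter and are not among the 7. In 6-week PTKO replicate 2, Adipoq was at 35.2 CPM, Plin1 at 18.3 CPM, Cidec at 46.1 CPM and Retn at 15 CPM. Among the other 17 libraries, PTKO DMSO replicate 2 was next, with 6.78, 4.52, 5.82 and 1.11 CPM for the same 4 genes. Of the 30 genes ranked first in the 2 directions, 4 lie on chromosome 4, which holds 6.05% of the tested genes: Arhgef19, Slc2a5, Vwa1 and Fam213b. Chromosomes 2, 7, 8 and 9 held 3 each, and chromosome 4 is named only because its count was the highest. These are counts over whole chromosomes. Whether the 4 genes lie close together on chromosome 4, in a segment that differs between the mice, was not tested.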
